A study of Homo sapiens with 4 samples.

Results

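The genes described here encode the 5 subunits of the transcription factor NF-kB (NFKB1, NFKB2, RELA, RELB and REL), 4 proteins of the IkB family (NFKBIA, NFKBIB, NFKBIE and NFKBIZ) and the ubiquitin-editing enzyme A20 (TNFAIP3). They were taken by name, and every probe set that the platform annotation gives to exactly 1 of these 10 genes was kept, which made 22 of the 54675 probe sets on the array. The cells were AGS, a gastric adenocarcinoma line of epithelial origin, and their RNA was measured on 4 Affymetrix arrays. One group held 2 arrays of cells kept for 8 h in medium with 10 µg/ml lipopolysaccharide (LPS) of Helicobacter pylori, and the other held 2 arrays of untreated cells that had received fresh medium for the same time. The labels name no genetic change in either group, and a single line stands for gastric epithelium. The series' text speaks of independent experiments, and the labels do not tie a replicate number to one of them, so the p-values measure the spread between these arrays.

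NF-kB acts as a dimer of Rel-domain proteins. In resting cells IkB proteins hold the dimers inactive, and receptors for bacterial products activate the IkB kinase (IKK) complex, which marks IkB for degradation and frees the dimers to enter the nucleus. NFKBIA, TNFAIP3, NFKB2, RELB and NFKBIZ are textbook targets of NF-kB itself, so their transcripts are widely used to read its activity, and NFKBIA and A20 then shut the pathway down. In gastric epithelium the pathway is best known for chemokine induction by live H. pylori.

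For the textbook targets the feedback runs through kappaB sites in their own promoters, and the stretches below show where matches to such sites lie. RefSeq windows of 300 bases, 250 before to 50 after a start site (build GRCh38.p14), were found for 8 of the 10 genes, in 14 windows. RELB and NFKBIE were not matched. The 10-base NF-kB consensus was searched on both strands, with overlapping matches merged. Of all 35116 windows of this length, 11.3% hold it. Of the 14 windows of these genes 9 hold it, and 7 of the 8 genes hold it in at least 1 window, against 13.3% of all genes in the table. Several forms of the motif were tried before this one was kept, and some of these genes are textbook targets. The shares therefore describe the letters, and an enrichment was not tested. For each such gene, the bases around the upstream matches of its first matching window are given 5′ to 3′ on the gene's strand, with the matches in capitals.
NFKB1: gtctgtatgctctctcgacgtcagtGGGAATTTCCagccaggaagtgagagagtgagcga
NFKB2: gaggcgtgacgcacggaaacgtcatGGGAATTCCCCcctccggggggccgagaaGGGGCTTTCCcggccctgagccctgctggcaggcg
REL: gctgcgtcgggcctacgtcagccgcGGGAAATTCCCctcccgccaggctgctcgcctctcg
NFKBIA: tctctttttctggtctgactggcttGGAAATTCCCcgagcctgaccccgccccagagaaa
NFKBIB: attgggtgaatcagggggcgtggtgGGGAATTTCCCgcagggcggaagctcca
NFKBIZ: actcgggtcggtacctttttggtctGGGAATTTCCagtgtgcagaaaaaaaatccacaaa
TNFAIP3: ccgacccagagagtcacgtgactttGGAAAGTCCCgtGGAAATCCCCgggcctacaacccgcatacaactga

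The NFKBIA stretch lies at chr14:35404796-35404855 on the minus strand, with its match starting 81 bases before the start site. The TNFAIP3 stretch lies at chr6:137867167-137867238 on the plus strand and holds a pair of matches, 67 and 55 bases before the start site. The NFKB2 stretch shown is at chr10:102394446-102394534 on the plus strand, the NFKB1 stretch at chr4:102501285-102501344 on the plus strand, and the NFKBIZ stretch at chr3:101827742-101827801 on the plus strand. REL is at chr2:60881502-60881562 and NFKBIB at chr19:38899916-38899968, both on the plus strand. The RELA windows held no match. A match describes these letters and does not show that a factor binds there.

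The values are the authors' deposited log2 expression values, used without further normalization. A level is a probe set's log2 value, and it cannot be ordered against that of another probe set because probes differ in affinity. Over the probe sets tested, the median level was 6.33, and 19 of the 22 member probe sets lay at or above it. The 3 dimmer ones were 1 of NFKB2 and 2 of REL. Each of the 10 genes had at least 1 probe set above the median. No filter on low values was used, and all 22 were tested.

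No member passed the test for a difference between LPS-treated and untreated cells. With limma's moderated test over 54613 probe sets, 0 of the 22 member probe sets passed an adjusted p of 0.05 in either direction (adjusted p = 1 for each), where the background share was 0%. At an unadjusted p under 0.05 there were also 0 of 22, against 2.6% of all probe sets (1.29% higher and 1.31% lower). That count holds for the fit without the replicate number. With the number as a block in limma, 3 of 22 had such a p, or 13.6%, against 6.55% of all probe sets. No member passed the adjusted threshold there either, and the labels do not say that the number marks a shared experiment. In such bulk RNA, fewer expressing cells and less RNA per cell cannot be told apart. The differences, LPS minus untreated on the log2 scale, ran from -0.30 for a REL probe set to 0.28 for an NFKBIZ probe set. Their median was 0.046 over the members and 0.015 over all probe sets tested. The smallest two-sided p that an exact permutation test of 1 value can reach with these 4 arrays is 0.33.

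**Figure D1:**
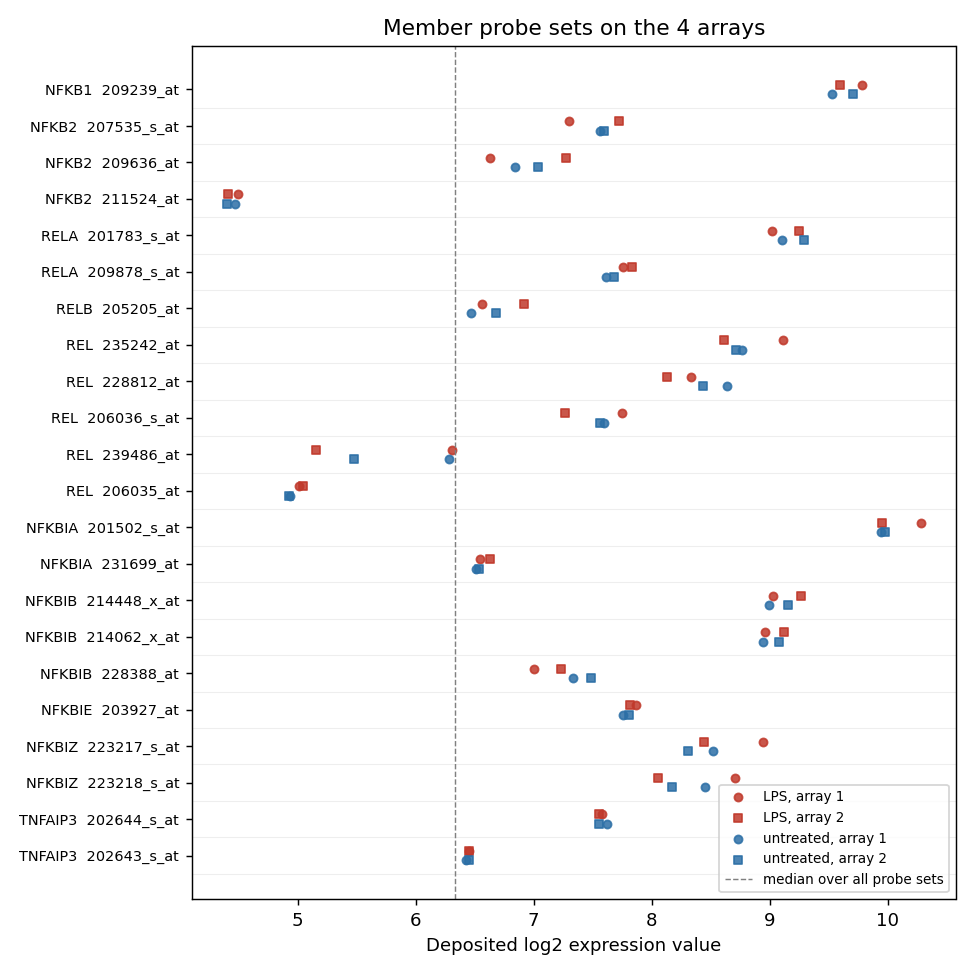
Deposited log2 expression values (x axis) of the 22 member probe sets (rows) on the 4 arrays. Red marks are LPS-treated and blue marks untreated cells, circles are arrays numbered 1 and squares arrays numbered 2, and the dashed line is the median over all probe sets (6.33). Most rows show red and blue marks that interleave. Many rows separate the circles from the squares, REL 239486_at most widely.

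Among the inhibitors, NFKBIA, the IkB protein that NF-kB resynthesises most quickly, had log2 levels of 10.28 and 9.95 on the LPS arrays, against 9.94 and 9.97 on the untreated arrays (probe set 201502_s_at). LPS array 1 stood above the other 3 arrays, and LPS array 2 lay between the untreated ones, so the groups overlapped. The difference was 0.16 ± 0.13 (SE; limma, adjusted p = 1), or 1.12-fold (95% interval 0.889 to 1.40). Without LPS replicate 1 the difference was -0.007. The dimmer NFKBIA probe set 231699_at read 6.55 and 6.63 on the LPS arrays, against 6.51 and 6.54 on the untreated arrays. Both of its LPS values lay above both untreated values, by a difference of 0.06 ± 0.11 (SE; limma, adjusted p = 1).

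NFKBIZ encodes IkB-zeta, a nuclear IkB-like protein that is induced by Toll-like receptor ligands and cooperates with NF-kB at some promoters. Its brighter probe set, 223217_s_at, was at 8.95 and 8.44 in LPS-treated cells, against 8.52 and 8.31 in untreated cells. The groups overlapped, since LPS array 2 lay below untreated array 1. The difference of 0.28 ± 0.19 (SE; limma, adjusted p = 1) had the highest upper bound among the brightest probe sets of the 10 genes, 1.22-fold (95% interval 0.881 to 1.68). The first same-numbered pair of arrays differed by 0.43 and the second by 0.13, and without LPS replicate 1 the difference was 0.029. The other NFKBIZ probe set, 223218_s_at, was at 8.70 and 8.06 in LPS-treated cells, against 8.45 and 8.17 in untreated cells. Here LPS held both the highest and the lowest array, and the difference was 0.07 ± 0.23 (SE; limma, adjusted p = 1). Both probe sets were higher on the arrays numbered 1 than on those numbered 2 within each group, by 0.36 and 0.46 on average.

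NFKBIB encodes IkB-beta, a slower-turning relative of IkB-alpha, and its 3 probe sets disagreed. Probe sets 214448_x_at and 214062_x_at, of a kind that can share signal with related sequences, differed by 0.08 ± 0.13 and 0.03 ± 0.12 (SE). Probe set 228388_at was at 7.00 and 7.23 in LPS-treated cells, against 7.33 and 7.48 in untreated cells. Both LPS arrays lay below both untreated arrays there, with a difference of -0.29 ± 0.14 (SE; limma, unadjusted p = 0.078, adjusted p = 1). The first pair of same-numbered arrays gave -0.33 and the second -0.25. NFKBIE, encoding IkB-epsilon, was measured by 1 probe set (203927_at), at 7.87 and 7.82 in LPS-treated cells, against 7.75 and 7.81 in untreated cells. The LPS arrays stood above the untreated ones, by 0.12 in the first pair and 0.008 in the second, and the ratio was 1.04 (0.861 to 1.27).

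TNFAIP3, whose product A20 removes and edits ubiquitin chains upstream of IKK, had the narrowest ranges over the arrays. Probe set 202644_s_at was at 7.58 and 7.55 in LPS-treated cells, against 7.62 and 7.56 in untreated cells. The arrays overlapped, at 0.985-fold (95% interval 0.811 to 1.19). Probe set 202643_s_at was at 6.46 and 6.45 in LPS-treated cells, against 6.42 and 6.45 in untreated cells. Its 4 arrays spanned 0.03 on the log2 scale, and its LPS arrays lay above the untreated ones by as little as 0.002 in the second pair.

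Among the subunits, NFKB1 encodes p105, the precursor of p50, and its single probe set (209239_at) was at 9.78 and 9.59 in LPS-treated cells, against 9.53 and 9.71 in untreated cells. The arrays interleaved, and the difference was 0.26 in the first pair and -0.12 in the second. RELA encodes p65, the main transactivating partner of p50. Its brighter probe set 201783_s_at was at 9.02 and 9.25 in LPS-treated cells, against 9.10 and 9.29 in untreated cells, with a ratio of 0.961 (0.766 to 1.21). The dimmer one, 209878_s_at, was at 7.76 and 7.83 in LPS-treated cells, against 7.61 and 7.68 in untreated cells. The LPS arrays lay above the untreated ones there, by 0.15 within each number, and limma gave 0.15 ± 0.12 (SE; unadjusted p = 0.251, adjusted p = 1). The 2 RELA probe sets thus had opposite signs.

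NFKB2 encodes p100, the precursor of p52, and RELB its usual partner in the noncanonical pathway. The brightest NFKB2 probe set, 207535_s_at, was at 7.30 and 7.73 in LPS-treated cells, against 7.57 and 7.60 in untreated cells, so the untreated arrays lay between the LPS arrays. Probe set 209636_at showed the same arrangement, at 6.63 and 7.27 in LPS-treated cells against 6.84 and 7.04 in untreated cells. Their differences were -0.07 ± 0.17 and 0.01 ± 0.22 (SE; limma, adjusted p = 1 for each), and the dim 211524_at differed by 0.02 ± 0.09. On both of the brighter probe sets the first pair gave a negative difference, -0.26 and -0.21, and the second a positive one, 0.13 and 0.23. RELB (205205_at) was at 6.56 and 6.92 in LPS-treated cells, against 6.47 and 6.68 in untreated cells. The LPS value was the higher one within each number, but the groups overlapped, and the ratio was 1.12 (0.849 to 1.47).

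REL encodes c-Rel, a subunit best known in lymphoid cells, and with 5 probe sets it was the most often measured member. The brightest, 235242_at, was at 9.11 and 8.61 in LPS-treated cells, against 8.77 and 8.72 in untreated cells, which overlapped. Probe set 228812_at was at 8.34 and 8.13 in LPS-treated cells, against 8.64 and 8.44 in untreated cells. All LPS values lay below the untreated ones on that probe set, by 0.30 in both same-numbered pairs. The fitted difference of -0.30 ± 0.14 (SE; limma, unadjusted p = 0.0688, adjusted p = 1) had the smallest unadjusted p of the 22, and its rank was 2186 among 54613 probe sets. Probe set 206036_s_at differed by -0.07 ± 0.18, and the dim 206035_at by 0.10 ± 0.09 with LPS arrays above untreated ones (SE for both).

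The remaining REL probe set, 239486_at, varied more than any other member. It was at 6.30 and 5.16 in LPS-treated cells, against 6.29 and 5.48 in untreated cells, so both arrays numbered 1 were high and both numbered 2 were low. The mean of the arrays numbered 1 exceeded that of the arrays numbered 2 by 0.97 on the log2 scale, whereas LPS minus untreated was -0.15 ± 0.41 (SE; limma, adjusted p = 1). Many other member probe sets also separated by number, with smaller gaps. Control probe sets differed by number too. The 18S ribosomal RNA controls were at 9.89 and 7.98 on the LPS arrays, against 10.07 and 8.12 on the untreated arrays, and the poly-A controls at 8.15 and 7.53, against 8.67 and 7.62. Of the member probe sets 10 were higher on the arrays numbered 1, like these controls, and 12 lower, down to -0.42 for NFKB2 209636_at and -0.28 for RELB. What part the controls' difference had in any member's values was not tested.

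**Figure D2:**
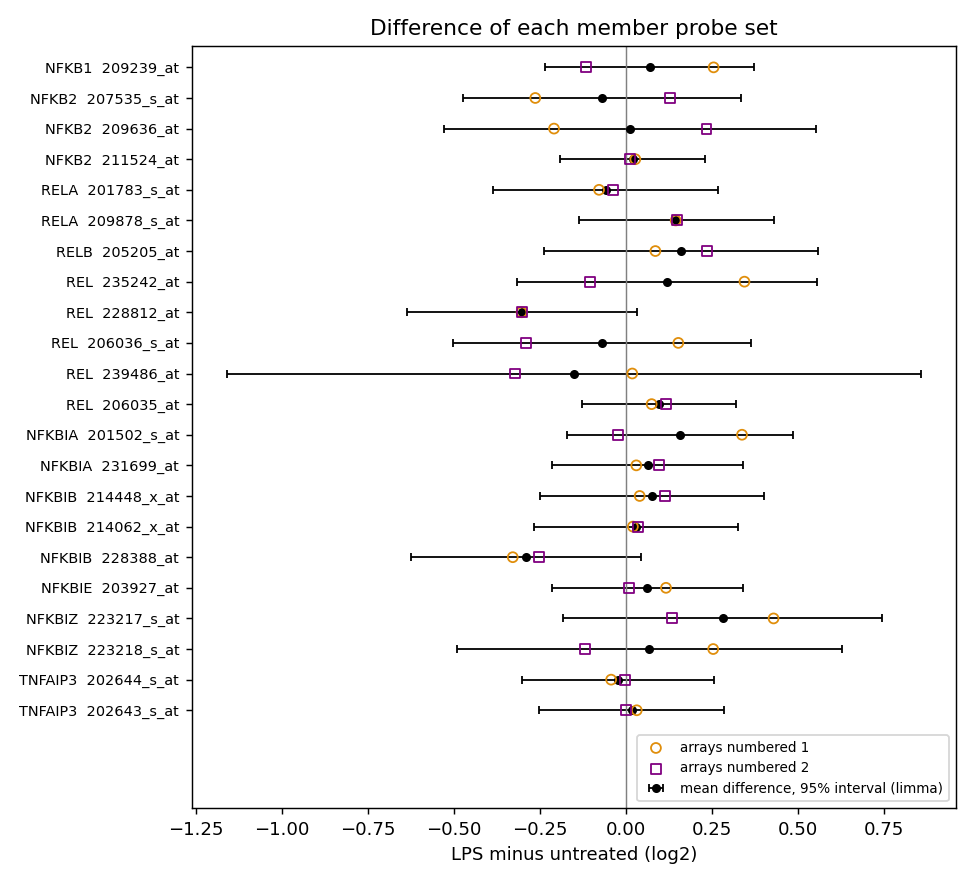
LPS minus untreated difference (x axis, log2) of the 22 member probe sets (rows). Black points and bars are limma estimates with 95% intervals, open circles the difference in the first same-numbered pair of arrays and open squares that in the second. Every interval includes 0, and the circles and squares lie on opposite sides of 0 in 8 rows.

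Across the members, the upper 95% bound of the ratio lay under 1.5-fold for the brightest probe set of 9 of the 10 genes, all but NFKBIZ, and for 19 of the 22 probe sets. On the lower side, the bound stayed within a 1.5-fold decrease for the brightest probe set of all 10 genes and for 19 of the 22 probe sets. The 3 that passed it were REL 228812_at (0.643), NFKBIB 228388_at (0.649) and REL 239486_at (0.447). Those bounds concern the deposited values, and an array method that compresses dim signals can understate a change in the transcript. Of the 7 genes with more than 1 probe set, 5 had probe sets of both signs (NFKB2, RELA, REL, NFKBIB and TNFAIP3). The probe sets of NFKBIA and of NFKBIZ all had mean differences above 0. The second same-numbered pair was below 0 for NFKBIA 201502_s_at (-0.02) and NFKBIZ 223218_s_at (-0.12). The subunits had 7 of 12 probe sets above 0 with a median of 0.016, and the IkB family 7 of 8 with a median of 0.066. Over all members 15 of 22 lay above 0, or 68.2%, where 55.6% of all probe sets did.

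Groups that do not overlap were about as common among the members as over the whole array. Both LPS arrays lay above both untreated arrays for 5 member probe sets, or 22.7%, against 17.6% of all probe sets. They lay below for 2, or 9.09%, against 11.9%. In either direction the arrays did not overlap for 31.8% of the members and 29.5% of all probe sets. The 5 higher ones were those of RELA (209878_s_at), REL (206035_at), NFKBIA (231699_at), NFKBIE and TNFAIP3 (202643_s_at), and the 2 lower ones those of REL (228812_at) and NFKBIB (228388_at). In the same-numbered pairs, 8 of 22 member probe sets had differences of opposite sign, or 36.4%, compared with 44.6% of all probe sets.

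**Figure D3:**
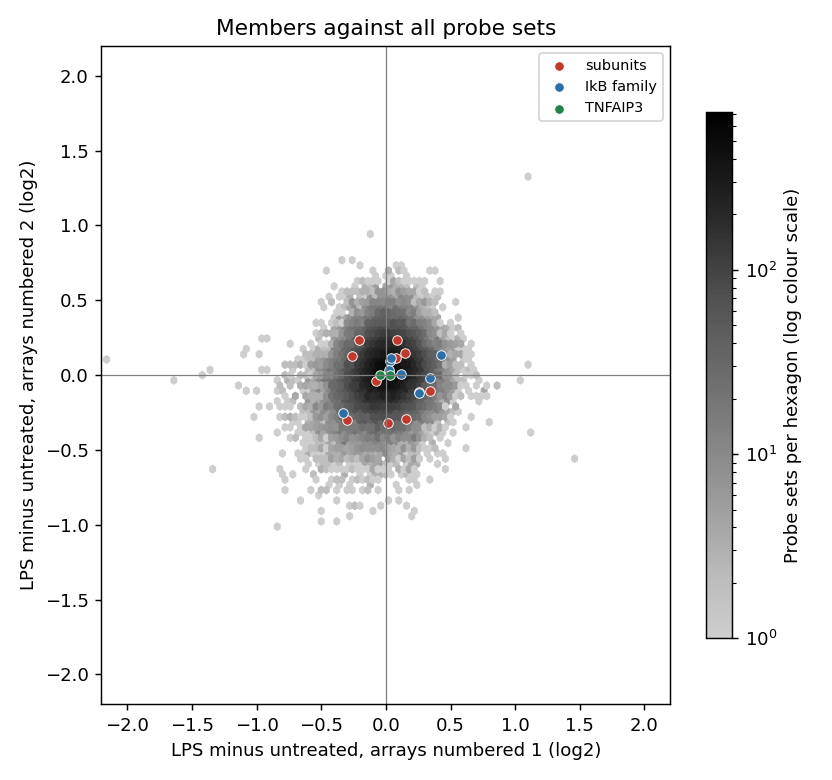
LPS minus untreated difference (log2) in the first (x axis) and second (y axis) pair of same-numbered arrays. Grey hexagons count all probe sets tested on a log colour scale, and coloured points are the member probe sets by role. The members lie within the dense part of the cloud, with none beyond 0.43 on the x axis or 0.32 in size on the y axis.

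The kinases and other IkB-like genes around the members passed no test either. CHUK, encoding the kinase IKK-alpha, was at 10.43 and 10.33 in LPS-treated cells, against 10.65 and 10.52 in untreated cells. The LPS arrays lay below the untreated ones, with a difference of -0.20 ± 0.10 (SE; limma, unadjusted p = 0.0949, adjusted p = 1). IKBKG, the regulatory subunit NEMO, differed by 0.10 ± 0.12, and IKBKB, the kinase IKK-beta of the canonical arm, by 0.08 ± 0.14 (SE). Of the other IkB-like genes, NFKBIL1 differed by 0.10 ± 0.15 and NFKBID, a nuclear IkB, by -0.03 ± 0.12 (SE). BCL3 was not analysed here.

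Over all pathway lists, 48 of 53 genes were measured, each by its brightest probe set, and 0 passed the adjusted test (limma) in either direction. By those brightest probe sets none had an unadjusted p under 0.05. Over all 109 probe sets of these genes 3 did, or 2.75%, against the 2.6% over the whole array, and they are named because of their values. LPS minus untreated was -0.43 on a TAB3 probe set below the median level (limma, unadjusted p = 0.0085, adjusted p = 1). It was -0.33 on an ITCH probe set (limma, unadjusted p = 0.0297, adjusted p = 1) and 0.30 on an LTB probe set (limma, unadjusted p = 0.0477, adjusted p = 1). By their brightest probe sets TAB3 differed by -0.12, ITCH by -0.03 and LTB by -0.09, so the LTB probe sets had opposite signs. The arrays did not overlap on any of the 3 probe sets named first. These probe sets were picked by a small p, which with 2 arrays a group favours such separation. Over the whole array 29.5% of probe sets did not overlap. In the noncanonical arm 3 of 5 genes lay above 0 with a median of 0.017, and the 3 smallest p-values were those of the receptor gene CD40 (0.05 ± 0.11, SE), the kinase gene MAP3K14 (-0.05 ± 0.14) and BIRC2 (0.02 ± 0.08), which encodes a ubiquitin ligase. Ubiquitin editors and brakes had 2 of 8 genes above 0 with a median of -0.018. Of these, N4BP1 differed by -0.19 ± 0.15, RNF11, a partner of A20, by -0.13 ± 0.11, and the deubiquitinase gene CYLD by -0.15 ± 0.14 (SE). For CYLD the first pair gave 0.002 and the second -0.31.

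The genes that carry a signal from TLR4, the LPS receptor, to IKK had 4 of 12 members above 0 and a median of -0.053. TLR4 was at 7.40 and 7.06 in LPS-treated cells, against 7.62 and 7.37 in untreated cells, which overlapped. Its co-receptor gene LY96, encoding MD-2, was at 3.60 and 3.77 in LPS-treated cells, against 3.81 and 3.69 in untreated cells, and CD14 was at 4.79 and 4.87, against 4.93 and 4.95. Both genes lay far below the median level of 6.33, where the lowest values on the arrays were 3.19 to 3.28. The kinase gene IRAK2 differed by 0.23 ± 0.15 (SE), with -0.05 in the first pair and 0.51 in the second, and was also below the median level. IRAK1 differed by 0.12 ± 0.09 (SE), and both of its LPS arrays lay above the untreated ones.

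Of the epithelial target genes of NF-kB, 11 of 19 lay above 0 and the median was 0.010. IER3, a stress-response gene, was at 12.44 and 12.40 in LPS-treated cells, against 12.31 and 12.17 in untreated cells. Its difference of 0.18 ± 0.08 (SE; limma, unadjusted p = 0.0639, adjusted p = 1) came with no overlap of the arrays. CXCL8, the gene of interleukin 8, was at 6.88 and 6.78 in LPS-treated cells, against 7.17 and 6.99 in untreated cells. These values are from the brighter of its 2 probe sets. The difference of -0.25 ± 0.13 (SE; limma, unadjusted p = 0.0971) again came with no overlap. In this list both LPS arrays lay above both untreated arrays for 3 of 19 genes and below them for 1. Over the whole array 29.5% of probe sets did not overlap. The proteoglycan gene SDC4 differed by 0.19 ± 0.12 (SE) with overlapping arrays.

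**Figure D4:**
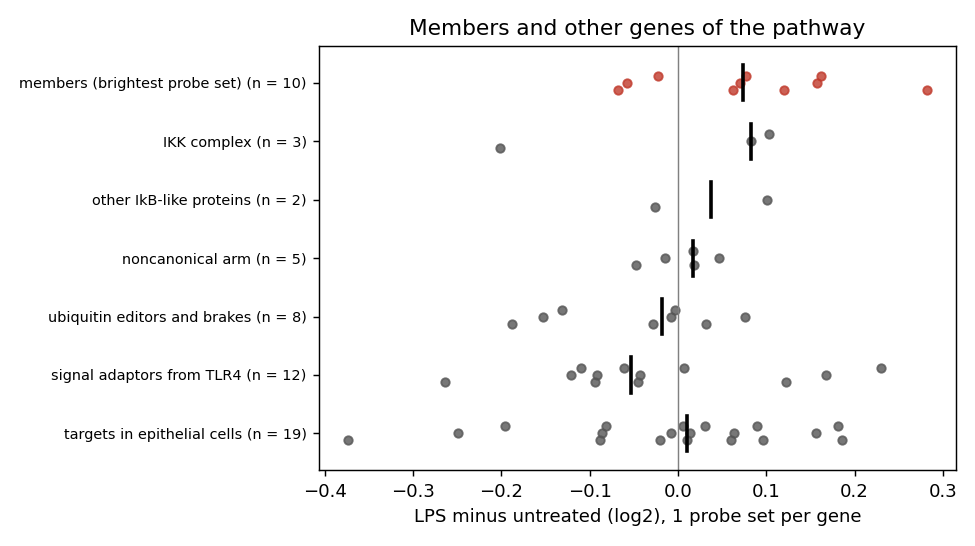
LPS minus untreated difference (x axis, log2) of each gene by its brightest probe set, for the 10 members (red) and 6 lists of other pathway genes (grey), with the list median as a black bar. All lists straddle 0, with medians between -0.053 and 0.083.

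The 3 genes whose values over the 4 arrays were most like those of NFKBIA (probe set 201502_s_at), by Euclidean distance after subtracting each gene's mean, were MBP, BANP and DNTTIP1, at distances of 0.02 each. With 4 arrays such likeness is common, and 141 of 12713 genes lay within a distance of 0.1.

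The arrays as a whole were alike, with correlations across probe sets, which are not independent replicates, from 0.9935 to 0.9971. All 8 markers of a gastric epithelial line were above the median level, with mean levels of 11.96 and 12.07 on the LPS arrays and 12.00 and 12.10 on the untreated arrays. Among them CDH1, the E-cadherin gene, was at 8.25 and 8.15, against 8.29 and 8.37. The 6 leukocyte markers measured averaged 6.23 and 6.35 on the LPS arrays and 6.42 and 6.37 on the untreated arrays. Of these, 2 were above the median level, LYZ and CD3E, and PTPRC, which defines leukocytes, was between 4.86 and 5.16 on all arrays. The 8 fibroblast and endothelial markers averaged 6.07 and 6.20 on the LPS arrays and 6.08 and 6.09 on the untreated arrays, with 4 above the median level.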

How the data were processed

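The deposited table holds log2 values for each probe set and array. Per the submitters' processing notes, MAS5 and RMA were used, without roles or versions; the values have the form of RMA output, with no zeros and array medians of 6.31 to 6.36. Background and normalization settings are not given in the sources used here, and detection calls were not used. RMA compresses dim signals. With 4 arrays, precision is limited by their number. The 62 control probe sets were left out, which gave 54613 tested, of which 41091 had 1 symbol in the platform annotation, 1801 several and 11721 none.

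The groups were tested in limma 3.58.1 (R 4.3.3; lmFit, then eBayes with an intensity trend), two-sided and without covariates. P-values were adjusted by Benjamini-Hochberg over every probe set tested, at a threshold of 0.05, with 95% intervals. The fit was tested on simulated data. Members and lists were chosen with earlier results of these data known. All member probe sets are named; of the other pathway lists, the first 2 in full and 3 genes each by the smallest unadjusted p. LY96, CD14 and the markers CDH1, LYZ, CD3E and PTPRC fall outside that rule and were picked after their values were seen. Alternatives were quantile normalization, a filter at the median level, no _x_at or _s_at probe sets, 1 probe set or the mean per gene, no trend, a replicate block and each array left out. Promoter windows are from RefSeq (GRCh38.p14); several forms of the kappaB motif were tried and the textbook consensus kept. Figures were drawn with matplotlib 3.10.9.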

Additional observations from a re-analysis of the deposited data

How the results depend on the processing

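Over the 11 alternatives, 0 member probe sets and 0 probe sets of the whole array passed the adjusted test (limma) in either direction; the smallest adjusted p of a member was 0.685. The median member difference was 0.073 with 1 probe set per gene and 0.022 to 0.083 when an array was left out. Member probe sets without overlap numbered 3 higher without _x_at or _s_at probe sets, 1 higher and 0 lower with 1 probe set per gene, and 2 higher and 0 lower with the mean per gene, where fewer features are counted. Leaving out an array, which leaves 1 array in a group, gave 7 to 13 higher and 3 to 7 lower. With 1 array in a group, separation is easier for any probe set, member or not. Shares over all probe sets or genes under these settings are not given, so the counts do not set the members apart. The sign turned in at least 1 alternative for 15 of the 22 member probe sets, for 14 of these only when an array was left out. The other 7 kept it: 5 above 0 (RELA 209878_s_at, REL 206035_at, NFKBIA 231699_at, NFKBIE and NFKBIZ 223217_s_at) and 2 below (REL 228812_at and NFKBIB 228388_at).

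Same-numbered arrays deviated together (r = 0.54 across probe sets), and the labels do not say that the number marks a shared experiment. With the replicate number as a block, 0 members passed (limma, smallest adjusted p = 0.685), and 1544 probe sets higher and 2035 lower had an unadjusted p under 0.05, against 704 and 715 without the block. Members at that level were 3 of 22, or 13.6%, against 6.55% of all probe sets under the same fit: NFKBIZ 223217_s_at (0.0441, higher), REL 228812_at (0.0121, lower) and NFKBIB 228388_at (0.0216, lower).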
